A study of Danio rerio with 25 samples.

Results

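Skin of zebrafish (Danio rerio) at 42 months of age was compared with skin at 12 months by small-RNA sequencing, over every microRNA hairpin of the deposited count table. The members were all 346 hairpin rows of the table, or 217 microRNA names when numbered genomic copies of a single name were added together. The samples were 10 of the 25 in the series, 5 labelled 3.5 years and 5 labelled 1 year, given below as 42 and 12 months. All 10 were total RNA from the skin of male fish of the strain AB JxTü. Both groups also carried a reporter transgene, Tg(flk:mCherry) at 12 months and Tg(wt1a:GFP) at 42 months. The flk promoter is active in vascular endothelium and the wt1a promoter in kidney podocytes and in mesothelium such as the epicardium. Because each transgene occurred at a single age here, age and transgene line cannot be told apart in any value of the comparison. The other ages used below were 6 and 24 months, with the strain AB JxTü and no transgene, and 36 months, with Tg(pu.1:GFP), a reporter of myeloid cells. The labels do not say in words that each library came from a separate fish, so the tests take libraries, and not known fish, as the replicates. Replicate numbers 1 to 5 only name the libraries of an age.

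MicroRNAs are short RNAs cut from hairpin precursors. Bound to Argonaute proteins, they pair with messenger RNAs, mainly through the seed near their 5′ end, and lower the stability and translation of those messages. In vertebrate skin miR-203, miR-205 and the miR-200 family are known from keratinocytes and other epithelial cells. Other cell types bring their own microRNAs, such as miR-223 and miR-142 in leukocytes, miR-126 in endothelium and miR-206 and miR-133 in skeletal muscle. Several microRNAs, among them miR-21, miR-146 and miR-155, are induced in inflamed tissue.

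The libraries at 42 months were shallower on average and held fewer hairpins at 10 or more reads. Hairpin reads totalled 2199520 to 5206505 at 12 months and 683884 to 2838826 at 42 months, with means of 3546025 and 1878604 (exact permutation test, two-sided, n = 5 each, p = 0.0476, and 0.0952 without any of replicates 2, 4 and 5 of either age). Hairpins with at least 10 reads numbered 250 to 264 at 12 months and 219 to 248 at 42 months, ranges that did not overlap (exact permutation p = 0.00794, the smallest that 5 against 5 can give). Adjusted over the 7 library measures compared, these became 0.111 for the totals and 0.0556 for the hairpins. With every library thinned to 683884 reads the means were 230.0 ± 5.34 and 222.2 ± 7.56 (SD, n = 5; exact permutation p = 0.119). The labelled tissue was checked against the keratinocyte microRNAs, and miR-205 and miR-203b were among the abundant microRNAs at both ages, at 65120 ± 26010 and 22880 ± 3915 CPM at 12 months (SD, n = 5). CPM are counts per 1000000 hairpin reads after scaling, with copies summed. A pair of libraries stood furthest from the others of their age: over 173 names with a mean of at least 10 CPM, 12 months replicate 1 was the farthest from its age's median for 81 names and 42 months replicate 2, the smallest library, for 60. The 10 largest names took 61.2% ± 2.69 of the reads at 12 months and 61.9% ± 3.43 at 42 months (SD, n = 5; exact permutation p = 0.746).

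At 42 months, 11 microRNAs were higher and 4 were lower than at 12 months. The higher ones included 3 of the 4 microRNAs listed for inflammation, miR-146b at 5.40-fold, miR-146a at 2.88-fold and the very abundant miR-21 at 2.56-fold. Of the 4 listed for leukocytes, miR-223 alone was among them, at 3.39-fold. MiR-34a, a target of p53 in mammals, was at 3.29-fold. The scarce miR-7145 was at 2.99-fold. Smaller rises, between 1.35-fold and 1.83-fold, were those of miR-222b, miR-99, miR-100, miR-23a and miR-27a. The lower microRNAs were the muscle microRNA miR-206, at 0.456 times its 12-month level, miR-454b at 0.679, the Hox cluster microRNA miR-196d at 0.535 and the scarce miR-30a at 0.241 times. Of the 190 names tested with edgeR's quasi-likelihood test, 15 passed an adjusted p of 0.05 (7.89% of those tested), 5.79% as higher and 2.11% as lower, and 53 were under an unadjusted p of 0.05. Over all names, 96 changes were above 0 and 94 below, with a median log2 change of 0.01. The scaling used here centres most changes near 0, so this balance is in large part set by it.

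**Figure D1:**
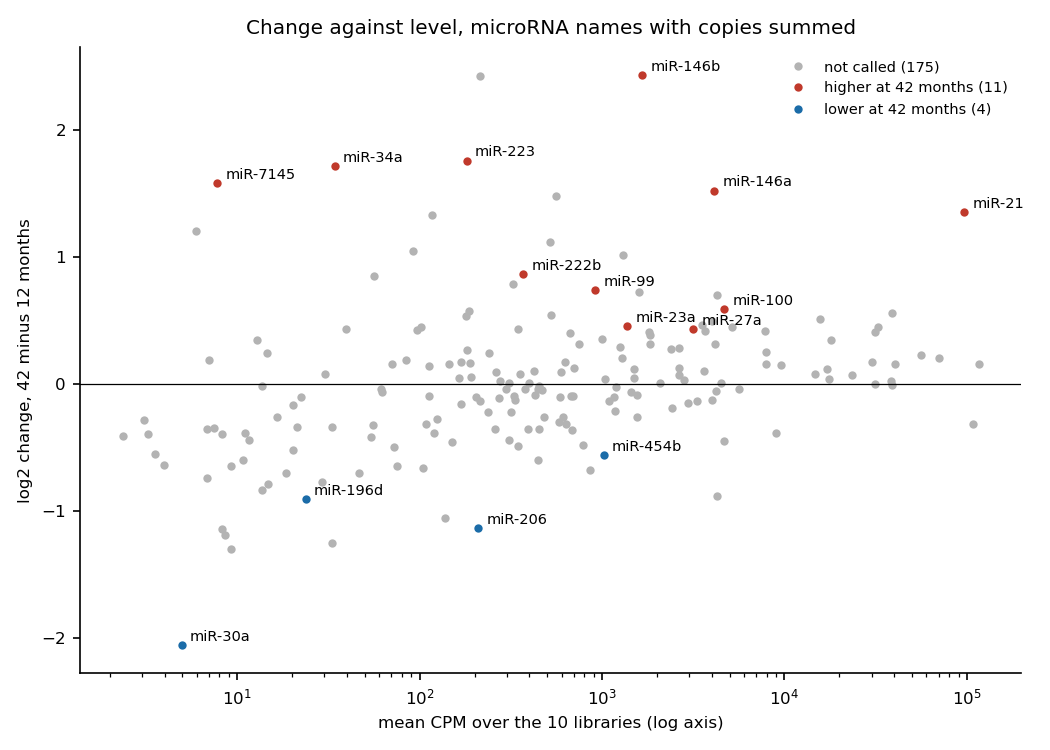
Log2 change from 12 to 42 months (vertical axis) against the mean CPM over the 10 libraries (horizontal log axis), each point a microRNA name with its copies summed, 190 in all. The 11 names called higher (red) run from miR-7145 at 7.76 CPM to miR-21 at 96610 CPM, and the 4 called lower (blue) from miR-30a at 4.97 to miR-454b at 1022 CPM.

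The number of calls depended on the fit. With the 10 libraries of the compared ages alone, so that the other ages did not help to estimate the spread, 0 names passed (39 at an unadjusted p under 0.05, and 0.0589 as the smallest adjusted p). The balance of calls depended on the scaling: 7 names were higher and 26 lower with upper-quartile scaling, and 5 and 17 with library size alone, where the median of all names moved to -0.21 and -0.23. Without 42 months replicate 1 the count was 6, without 12 months replicates 3, 4 or 5 it was 9 each, without 12 months replicate 1 it was 24 and without 42 months replicate 4 it was 28. In a setting chosen after the data were seen, without 42 months replicates 1, 2 and 5, 2 names passed, with miR-222b the member of the 15 among them.

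On the table as deposited, 23 of 258 hairpins passed in edgeR (8.91%), 16 higher (6.2%) and 7 lower (2.71%), and 65 were under an unadjusted p of 0.05. In 12 of the 23 the CPM ranges of the 2 ages did not overlap, against 16 of 258 hairpins tested in all (6.2%). With copies summed, the ranges lay apart for 5 of the 15 called names, against 7 of 190 names tested (3.68%). Both copies of miR-21, miR-100, miR-99 and miR-206 were called, and 3 of the 4 copies of miR-23a, with miR-23a-3 just outside (log2 change 0.34, adjusted p = 0.053). Copies of a name hold similar counts and are not independent. A pair of hairpins was called lower without its name, miR-135c-2 (log2 change -1.60, adjusted p = 0.0492) and miR-455-2 (-0.77, adjusted p = 0.02). With counts summed by microRNA number, 11 of 124 families passed (8.87%), 7 higher (5.65%) and 4 lower (3.23%). The families miR-222, miR-23, miR-27, miR-30 and miR-196, which each hold a called name beside other members, did not pass. Their edgeR adjusted p was 0.1181, 0.1385, 0.6634, 0.9395 and 0.2695. Added on the lower side were miR-1388 and miR-455, with changes of -0.77 ± 0.24 and -0.70 ± 0.17 (SE, edgeR adjusted p = 0.045 and 0.0115). As single names, which hold the same counts as these families, they stood outside the threshold (adjusted p = 0.086 and 0.052). The fits differed in scaling and in the features tested, with a median log2 change of -0.09 over families and 0.01 over names. MiR-455 is known from cartilage.

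Of the 4 microRNAs listed for inflammation, 3 were higher, where 5.79% of all names were. This list and those below were chosen with earlier results of these data known, so such shares and medians are descriptions and not tests. MiR-21, which accumulates in many inflamed and regenerating tissues, was at 49060, 57950, 58830, 48360 and 57440 CPM in 12 months replicates 1 to 5. In 42 months replicates 1 to 5 it was at 260700, 66960, 99830, 85320 and 181700 CPM. On these scaled values every library at 42 months was above every library at 12 months, and replicates 1 and 5 were far above the rest. The means were 54330 ± 5158 and 138900 ± 80980 CPM (SD, n = 5), a log2 change of 1.35 ± 0.25 (SE, edgeR adjusted p = 0.00368, the smallest of all names). Of all hairpin reads, miR-21 made up 5.86% ± 0.902 at 12 months and 12.3% ± 6.08 at 42 months, and 21.1% in 42 months replicate 1. The exact permutation test of this share gave p = 0.0397, and 0.111 when adjusted over the 7 library measures. As shares without scaling the ages overlapped, at 4.32% to 6.61% at 12 months and 5.42% to 21.1% at 42 months. MiR-21 stayed called without each library in turn. Without 42 months replicates 1, 2 and 5 together the change was 0.71 and just missed the threshold (adjusted p = 0.0548).

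MiR-146a, which in mammals restrains innate immune signalling by repressing TRAF6 and IRAK1, was at 1514, 2204, 1945, 2575 and 2386 CPM at 12 months and at 11330, 3140, 5121, 3773 and 7236 CPM at 42 months, replicates 1 to 5 in order. Again the ages did not overlap on scaled CPM, and replicates 1 and 5 were the highest at 42 months (log2 change 1.53 ± 0.32, SE, adjusted p = 0.00524). Without scaling the ages overlapped for miR-146a, with 1739 of 683884 hairpin reads in 42 months replicate 2 and 11072 of 3533138 in 12 months replicate 4. Its relative miR-146b was at 344 to 844 CPM at 12 months and at 9638, 594, 1034, 798.7 and 1902 CPM in 42 months replicates 1 to 5. Here the ages overlapped and a single library held most of the rise. The change was 2.43 ± 0.56 (adjusted p = 0.00893), and without 42 months replicate 1 it was 1.07 and not called (adjusted p = 0.0706). MiR-155, induced in activated leukocytes, was at 60.1 ± 13.1 CPM at 12 and 124 ± 100.5 at 42 months and did not pass (log2 change 1.05 ± 0.36, adjusted p = 0.0698). Replicates 1 and 5 were again the high ones, at 264 and 195 CPM against 41.5 to 75.9 in the other libraries of that age. The 4 members summed to 51020 to 61160 CPM at 12 and 70740 to 281900 at 42 months, with a median log2 change of 1.44 against 0.01 over all names.

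Of the leukocyte microRNAs, miR-223 was higher and the others did not pass. MiR-223, known from neutrophils and macrophages, was at 118, 83.5, 67.2, 66.3 and 78.5 CPM in 12 months replicates 1 to 5 and at 630, 235, 133, 93.4 and 307 in 42 months replicates 1 to 5. All the libraries at 42 months but replicate 4 were above the highest at 12 months. The log2 change was 1.76 ± 0.36 (SE, edgeR adjusted p = 0.00524), and 1.21 without 42 months replicate 1 (adjusted p = 0.0301). Without 42 months replicates 1, 2 and 5 it was 0.41 (adjusted p = 0.478). The microRNAs found across blood cells showed smaller differences, with miR-142a changed by 0.01 ± 0.17, miR-142b by 0.41 ± 0.18 and the lymphocyte microRNA miR-150 by -0.04 ± 0.21 (adjusted p = 0.979, 0.141 and 0.916). The 4 leukocyte members summed to 2681 to 3673 CPM at 12 months and 3029 to 4190 at 42 months, and none of them was at 0. In bulk skin, fewer or more cells of a type and less or more RNA per cell cannot be told apart.

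Of the 3 names of the miR-34 list, the tested member was miR-34a, which p53 induces in mammals. It was at 17.5, 15.4, 13.8, 20.0 and 14.5 CPM in 12 months replicates 1 to 5 and at 153.3, 18.1, 44.7, 19.9 and 25.4 CPM in 42 months replicates 1 to 5. Replicate 1 was far above the other libraries, replicates 3 and 5 were also above every library at 12 months, and replicates 2 and 4 lay within the 12-month range. The log2 change was 1.72 ± 0.42 (SE, edgeR adjusted p = 0.0153). Without 42 months replicate 1 it was 0.77 and was not called (adjusted p = 0.086).

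**Figure D2:**
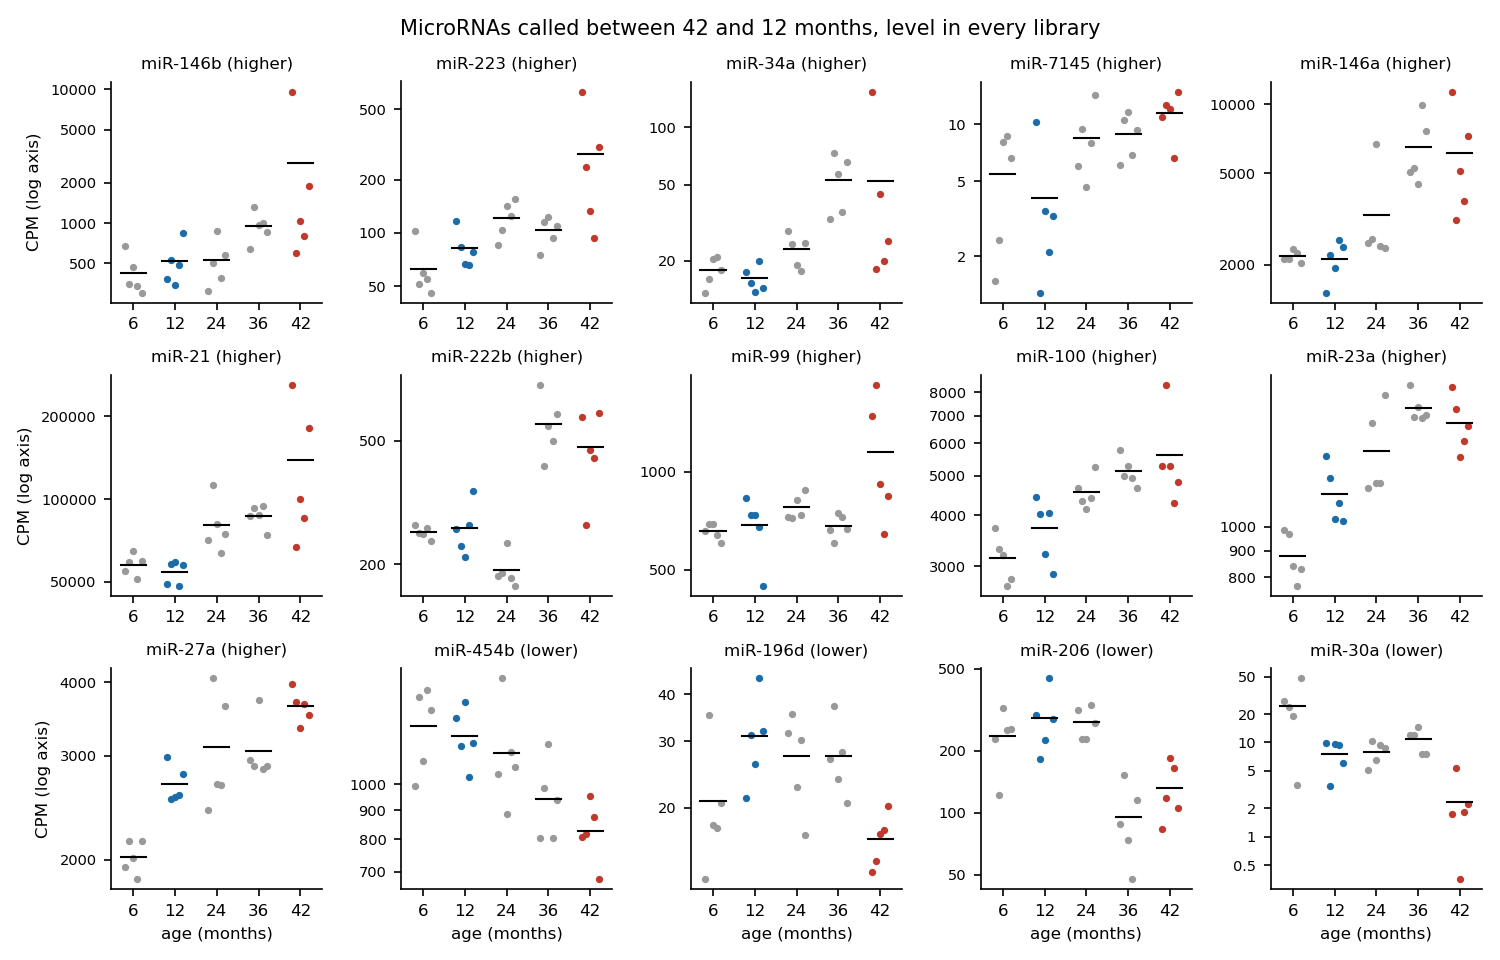
Level of the 15 called microRNAs in every library of the series, in CPM on log axes, by age in months, with bars at the mean of each age (n = 5). Libraries at 12 months are blue, at 42 months red and at other ages grey. On these scaled CPM miR-21, miR-146a and miR-27a lie higher in all 5 libraries at 42 months than at 12. MiR-146b and miR-34a are drawn up by a single library.

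Of the 5 microRNAs numbered miR-99, miR-100 and miR-125, 2 were higher, where 5.79% of all names were, and the changes of all 5 were above 0 (median 0.59), against 50.5% of all names. MiR-100, which represses mTOR in mammals, was at 4442, 4021, 3218, 4042 and 2861 CPM at 12 months and 5284, 8347, 5275, 4291 and 4817 at 42 months, replicates 1 to 5. Replicate 2 at 42 months stood apart from the rest, and the ages overlapped at a single library on each side (log2 change 0.59 ± 0.15, SE, edgeR adjusted p = 0.0196). MiR-99 was at 446 to 830 CPM at 12 months and 642 to 1849 at 42 months, highest in replicates 1 and 2 (0.74 ± 0.20, adjusted p = 0.0235). It kept its call in 6 of 10 fits with 1 library left out, and lost it without 12 months replicates 4 or 5 or 42 months replicates 1 or 2 (adjusted p = 0.0611 to 0.0815). MiR-100 lost its call without 12 months replicate 5 (adjusted p = 0.0541). MiR-125c, at 865 ± 366.5 and 1751 ± 1154 CPM (SD, n = 5), did not pass (1.02 ± 0.34, adjusted p = 0.064). With upper-quartile scaling or library size alone, neither miR-100 (adjusted p = 0.107 and 0.0836) nor miR-99 (0.087 and 0.0725) was called. The let-7 members showed small changes, with 0 of 10 called and a median of 0.12; let-7a, the most abundant, went from 51360 ± 6577 to 60310 ± 7835 CPM (adjusted p = 0.28).

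Hairpins within 10 kb of miR-99 and miR-100 copies belong to let-7, miR-125b and miR-125c, and their changes had the same sign. Sharing a sign was common, as all members did so in 34 of the 47 clusters with at least 2 tested hairpins. In the cluster of miR-99-1, let-7c-1 and miR-125c the hairpin changes were 0.77, 0.35 and 0.96, and in that of miR-100-1, let-7a-2 and miR-125b-1 they were 0.52, 0.16 and 0.27. MiR-99-1 and miR-100-1 were the called hairpins in them.

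MiR-23a and miR-27a, of a group known in mammals from vessels, muscle and fat, were higher by small amounts. In the genome table miR-27a lies beside miR-23a-3, the copy that was not called, and the 3 called copies lie with miR-27e or miR-27c and with copies of miR-24. MiR-27a was at 2993, 2535, 2556, 2576 and 2800 CPM in 12 months replicates 1 to 5 and at 3974, 3699, 3340, 3677 and 3514 CPM in 42 months replicates 1 to 5. On scaled CPM the lowest library at 42 months was above the highest at 12 months (log2 change 0.44 ± 0.12, SE, edgeR adjusted p = 0.0266). Without scaling the ages overlapped, with 4705 of 1578189 hairpin reads in 42 months replicate 5 and 11076 of 3533138 in 12 months replicate 4. MiR-23a went from 1157 ± 147 to 1587 ± 192 CPM (SD, n = 5; 0.46 ± 0.13, adjusted p = 0.0235), with the ages overlapping at a single pair of libraries, 1368 CPM at 12 months and 1363 at 42. These small changes were lost with upper-quartile scaling (adjusted p = 0.107 for miR-23a and 0.117 for miR-27a) and with library size alone (0.0995 and 0.212). Without 12 months replicates 3, 4 or 5 or 42 months replicate 1, neither was called (adjusted p = 0.0501 to 0.0706), nor was miR-27a without 12 months replicate 2 (0.059). The other 6 of the 8 list members did not pass, among them miR-27c at 6693 ± 1145 and 8945 ± 1878 CPM (adjusted p = 0.11) and miR-24 at 275 ± 17.1 and 280 ± 40.7 CPM (adjusted p = 0.916). The median of the list was 0.14.

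MiR-222b, of the miR-221 and miR-222 group that represses the cell-cycle inhibitor p27 in mammals, was at 259.5, 229, 211, 268 and 344 CPM in 12 months replicates 1 to 5. In 42 months replicates 1 to 5 it was at 598, 267, 468, 441.5 and 615 CPM. Replicate 2 at 42 months lay within the 12-month range and the other 4 lay above it (log2 change 0.87 ± 0.19, SE, edgeR adjusted p = 0.00524). It was called without each library in turn and also without 42 months replicates 1, 2 and 5 (0.75, adjusted p = 0.0299). With library size alone it just missed the threshold and was not called (adjusted p = 0.0516). Nor was it called with only the 2 compared ages in the fit (edgeR adjusted p = 0.0703). Its more abundant relatives miR-222a and miR-221 were at 0.45 ± 0.19 and 0.28 ± 0.17 and did not pass (adjusted p = 0.116 and 0.307).

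The eleventh higher name, miR-7145, lies outside the rule for naming microRNAs and was singled out after its values were seen. It held 6 to 20 reads per library at 12 months and 7 to 34 at 42 months (log2 change 1.58 ± 0.49, edgeR adjusted p = 0.0461). The call was lost in 7 of 10 fits with 1 library left out, those without 12 months replicates 2 to 5 or 42 months replicates 1, 3 or 5 (adjusted p = 0.0684 to 0.103).

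Among the lower microRNAs, miR-206 belongs to skeletal muscle, where the MyoD family of factors induces it. It was at 299, 181.5, 226, 450 and 285 CPM in 12 months replicates 1 to 5 and at 83.6, 117, 185, 165 and 105 CPM in 42 months replicates 1 to 5. Apart from replicate 2 at 12 months and replicate 3 at 42 months, which overlapped, the older libraries were lower (log2 change -1.13 ± 0.30, SE, edgeR adjusted p = 0.022). The call was lost without 12 months replicate 4 (adjusted p = 0.0664) or 42 months replicate 1 (0.0706). All 6 skeletal muscle microRNAs tested had changes below 0, with a median of -0.47, where 50.5% of all names were above 0, and miR-206 was the called member. MiR-1 was at 187 ± 96.5 and 89.4 ± 44.6 CPM (SD, n = 5; adjusted p = 0.0924). The abundant miR-133a was at 10220 ± 3493 and 7826 ± 3030 CPM (adjusted p = 0.478). The muscle members summed to 7613 to 16800 CPM at 12 and 5027 to 13780 at 42 months, none was at 0, and the part of muscle tissue in the change of miR-206 was not tested. In the genome, miR-206-1 and miR-206-2 each lie beside a miR-133 copy, and the pairs changed by -1.18 and -0.56 (miR-133b) and by -1.21 and -0.53 (miR-133c).

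MiR-454b, grouped by its sequence with miR-130 and miR-301, was at 1309, 1167, 1400, 1029 and 1185 CPM in 12 months replicates 1 to 5. In 42 months replicates 1 to 5 it was at 808, 818, 953, 876 and 680 CPM. Every library at 42 months was below every library at 12 months (log2 change -0.56 ± 0.15, SE, edgeR adjusted p = 0.0226). It was not called without 12 months replicate 3 (adjusted p = 0.0684) or 42 months replicate 1 (0.0706). Of 8 members of its list 7 had changes below 0, where 94 of all 190 names did, and the members other than miR-454b did not pass. In the genome, miR-130c-2, miR-301b and miR-130b lie in a cluster with miR-454b. The median of the list was -0.37, against 0.01 over all names. The largest uncalled changes were those of miR-301b (-0.70 ± 0.25, adjusted p = 0.0722) and miR-301c (-0.70 ± 0.26, adjusted p = 0.0912). MiR-130c, which is as abundant as miR-454b, was at 1196 ± 134 and 1179 ± 225 CPM (SD, n = 5; adjusted p = 0.921). As many as 6 of the list's members were called lower in a planned setting. Over all 190 names, lower calls numbered 26 with upper-quartile scaling and 17 with library size alone, against 4 in the fit used here.

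MiR-196d, one of the microRNAs that lie between Hox genes and repress them, was at 21.2, 31.2, 26.1, 44.2 and 31.9 CPM in 12 months replicates 1 to 5 and at 13.5, 14.4, 17.0, 17.5 and 20.2 CPM in 42 months replicates 1 to 5. On scaled CPM the ages did not overlap. Without scaling they did, with 29 of 1524466 hairpin reads in 42 months replicate 4 and 41 of 2199520 in 12 months replicate 1. The log2 change was -0.90 ± 0.26 (SE, edgeR adjusted p = 0.0339), but the call was kept in 3 of 10 fits with 1 library left out. It was lost without 12 months replicates 2 to 5 or 42 months replicates 1 to 3 (adjusted p = 0.0501 to 0.0986). The 8 members of the Hox cluster list lay on both sides of 0. MiR-10b, at 109500 ± 26190 and 122400 ± 27010 CPM (SD, n = 5), did not pass (adjusted p = 0.618), and miR-10a, at 12900 ± 2736 and 18380 ± 2597 CPM, was just outside the threshold (0.51 ± 0.16, adjusted p = 0.052). MiR-30a rested on few reads, 16 to 40 per library at 12 months and 1 to 4 at 42 months (log2 change -2.05 ± 0.61, adjusted p = 0.0339). Its CPM ranges overlapped, and the call was lost without 12 months replicates 3, 4 or 5 or 42 months replicates 1 or 3 (adjusted p = 0.0501 to 0.0908). The abundant relatives miR-30d, miR-30e, miR-30c and miR-30b had changes between -0.13 and 0.26 and did not pass.

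**Figure D3:**
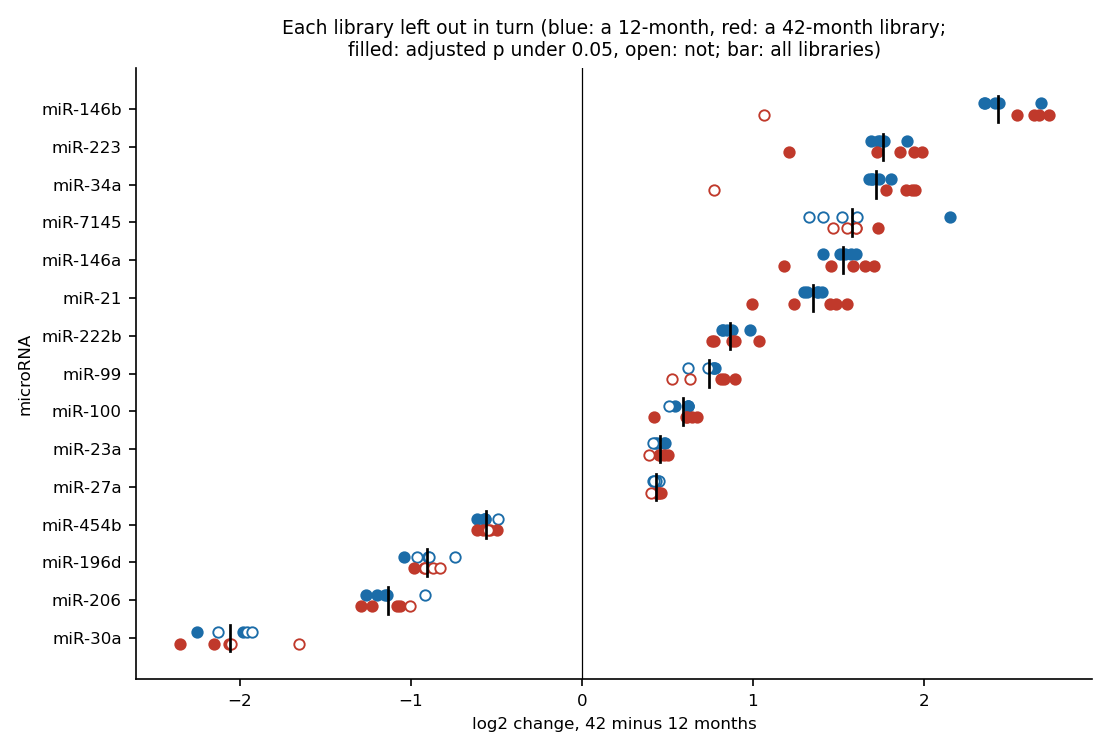
Log2 change from 12 to 42 months of the 15 called microRNAs with each of the 10 libraries left out in turn (blue, a 12-month library left out; red, a 42-month library), with filled circles for an adjusted p under 0.05 and bars for the value with all libraries. No change crosses 0, in fits that reuse libraries from which the names were called. The red circles of miR-146b at 1.07 and miR-34a at 0.77 show the fit without 42 months replicate 1.

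The microRNAs of the skin's main cell types showed no call. In the epidermal list 0 of 10 members passed, 5 changes were above 0 and 5 below, and the median was -0.03. MiR-205 averaged 65120 ± 26010 CPM at 12 months and 75200 ± 61080 CPM at 42 months (SD, n = 5; log2 change 0.21 ± 0.39, edgeR adjusted p = 0.764). It reached 183000 CPM in 42 months replicate 2 against 39180 to 64910 in the other libraries of that age. MiR-203b was at 22880 ± 3915 and 24040 ± 3712 CPM, a change of 0.07 ± 0.19 (adjusted p = 0.869). MiR-200b and miR-200c were at -0.26 ± 0.14 and -0.21 ± 0.15 (adjusted p = 0.267 and 0.432). MiR-31, induced in mammalian keratinocytes during wound healing, was at 150 ± 36.0 and 225 ± 98.2 CPM (0.58 ± 0.25, adjusted p = 0.13). Over the planned settings up to 2 epidermal members were called lower and 0 higher. Lower calls over all 190 names reached 26 there, with upper-quartile scaling.

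No member passed among the mesenchymal list (4 members, median 0.08, miR-199 at 17360 ± 2415 and 17890 ± 3176 CPM, SD, n = 5), the endothelial list (2 members, miR-126a at 0.32 ± 0.21, SE), the erythroid list (2 members, miR-451 at 0.42 ± 0.38) and the pigment cell microRNA miR-204 (39010 ± 6748 and 38840 ± 4175 CPM). The endothelial sum was 3744 to 8179 CPM at 12 months, the age that carries the endothelial reporter, and 5288 to 9985 at 42 months. The sensory cluster of miR-183, miR-182 and miR-96 also held 0 of 3 calls, with changes from -0.34 to -0.04. Without a call were also the lists of miR-17-92 (15 members), miR-15/16 (8), neural (7), liver and gut (7), miR-103 with miR-107 (3), miR-181 (3), miR-29, miR-26, miR-148 with miR-152, miR-101, miR-132 with miR-212, cartilage and miR-462 with miR-731 (2 each). Some of these gained calls under other settings. With upper-quartile scaling 2 members were lower in each of the lists of miR-148 with miR-152 and miR-103 with miR-107, and with library size alone 2 were lower in the latter and in that of miR-181. In these settings 26 and 17 of all 190 names were lower, and the median of all names was -0.21 and -0.23. Of the neural list 2 were lower without 42 months replicate 5, where 6 of all 190 names were. Up to 1 member was called in cartilage (lower, in 7 of 9 planned settings), liver and gut (lower), miR-17-92 (1 lower or 1 higher) and miR-462 with miR-731 (higher), and up to 2 in let-7 (higher). The paired microRNAs miR-462 and miR-731, induced by interferon and virus infection in fish, were at 0.56 ± 0.27 and 0.71 ± 0.25 (adjusted p = 0.176 and 0.0718). Among the most abundant microRNAs, miR-181a was at 119400 ± 33220 and 96040 ± 21270 CPM (adjusted p = 0.394) and miR-92a at 27540 ± 9366 and 37640 ± 9711 CPM (adjusted p = 0.183). MiR-22a and miR-26a changed by 0.16 ± 0.16 and 0.02 ± 0.13 (adjusted p = 0.531 and 0.916). None of the 4 miR-430 names was tested.

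**Figure D4:**
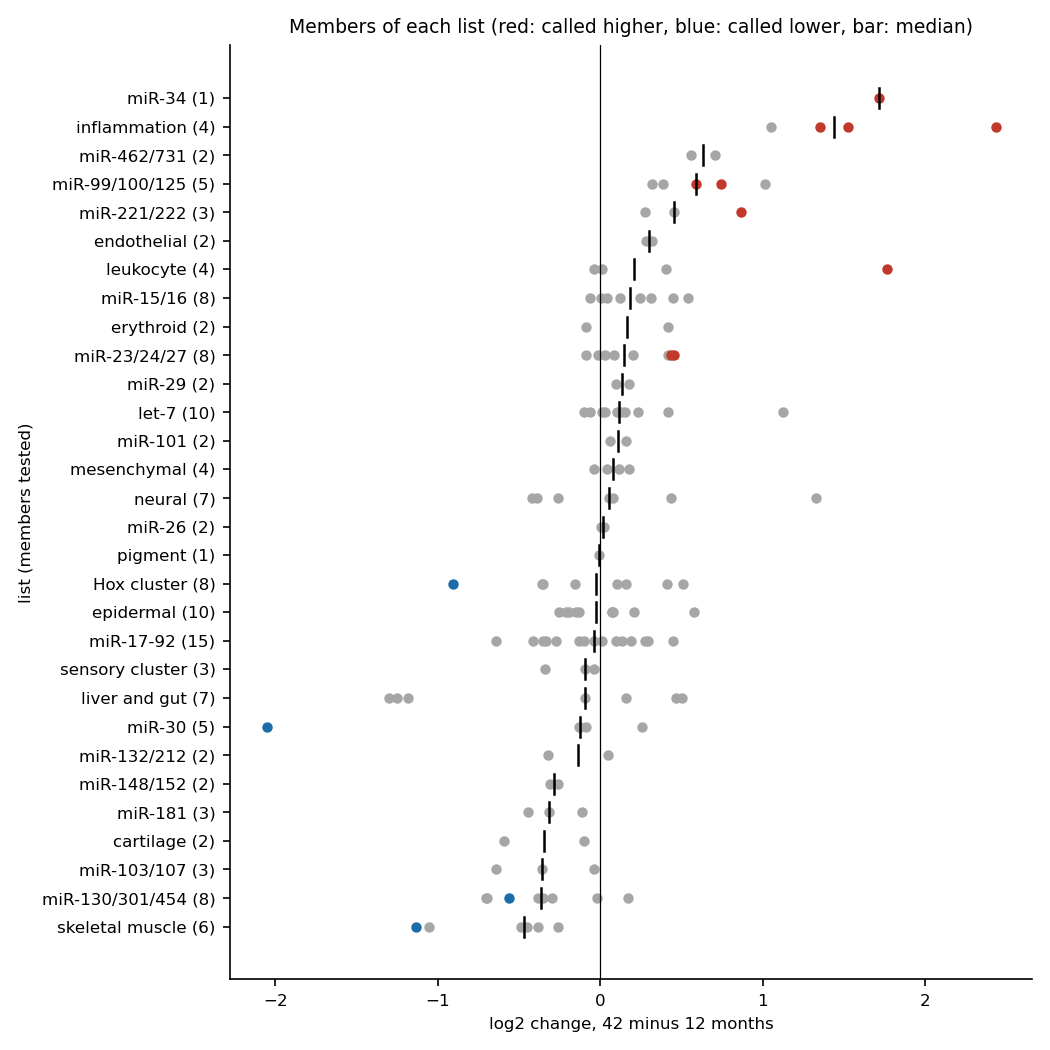
Log2 change from 12 to 42 months of every tested member of each list, with the number of members tested in brackets and a bar at the list's median. Called members are red (higher) or blue (lower); the inflammation list lies wholly above 1 and all 6 skeletal muscle members lie below 0.

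In the liver and gut list 0 of 7 members passed, with 3 changes above 0 and 4 below and a median of -0.09. The members above 0 included miR-375, known from pancreatic islets, at 2951 ± 955.8 and 4084 ± 910.9 CPM (SD, n = 5; log2 change 0.47 ± 0.23, SE, edgeR adjusted p = 0.176), and miR-192 (0.50 ± 0.63, adjusted p = 0.642). The neighbours miR-216a, miR-216b and miR-217, known from the pancreas and singled out after their values were seen, changed by -1.30 ± 0.55, -1.25 ± 0.44 and -1.19 ± 0.65 (adjusted p = 0.124, 0.0701 and 0.255). MiR-216b was at 33.4 to 54.7 CPM at 12 months and 9.64 to 23.9 at 42 months. MiR-216a was at 10.7 to 14.7 and 2.41 to 9.03 CPM, which are few reads per library at 42 months. These 2 did not overlap between the ages, as held for 7 of 190 names in all (3.68%), while miR-217 overlapped, at 6.91 to 16.4 and 3.19 to 11.9 CPM.

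The other 3 ages place the 15 calls in a longer series, in which the transgene also differed between ages, apart from 6 and 24 months. The means of miR-21 were 57770 CPM at 6 and 54330 at 12 months, 80810 at 24, 86990 at 36 and 138900 at 42 months. At 24 months miR-21 was at 113000 CPM in replicate 2 and at 63790 to 81290 in the others. For miR-146a the means at 6, 12, 24, 36 and 42 months were 2179, 2125, 3307, 6486 and 6119 CPM, with 36 months slightly above 42. A single library raised its 24-month mean, replicate 3 at 6673 CPM, against 2372 to 2593 in the others of that age. MiR-222b was lowest at 24 months, at 191 CPM, and highest at 36 months, at 569. MiR-206 was at 235, 288 and 275.5 CPM at 6, 12 and 24 months and at 95.5 and 131 at 36 and 42 months. MiR-99 was at 656, 685, 776 and 682 CPM at the 4 ages before 42 months, and at 1146 at 42. MiR-30a had its highest mean at 6 months, 24.4 CPM, and its lowest at 42 months, 2.31.

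The change from 6 to 36 months and that from 6 to 24 months use none of the 10 libraries compared here, though all share the spread of a single fit. Age and transgene cannot be told apart from 6 to 36 months either. Between these ages 14 of the 15 changed in the same direction, with miR-196d the exception. Over all 190 names 121 did (63.7%). Of the 15, 8 were also called from 6 to 36 months in that direction: miR-146a, miR-34a, miR-222b, miR-100, miR-23a, miR-27a, miR-206 and miR-454b. They are 53.3% of the 15 and 21.6% of the 37 names called from 6 to 36 months, where 10% of names tested were called higher and 9.47% lower. MiR-146a and miR-34a changed by 1.57 each there (adjusted p = 0.0011 and 0.00837). MiR-21 changed by 0.59 and miR-223 by 0.72 and did not pass (adjusted p = 0.0959 and 0.15). From 6 to 24 months, in fish without a transgene, 12 of the 15 had the same direction (115 of all 190, 60.5%) and 4 were called, miR-100, miR-23a, miR-27a and miR-30a (26.7% of the 15 and 8.89% of the 45 names called there). In that pair 11.6% of names were called higher and 12.1% lower. MiR-206 and miR-222b had opposite, uncalled changes of 0.23 and -0.41 from 6 to 24 months (adjusted p = 0.599 and 0.108).

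**Figure D5:**
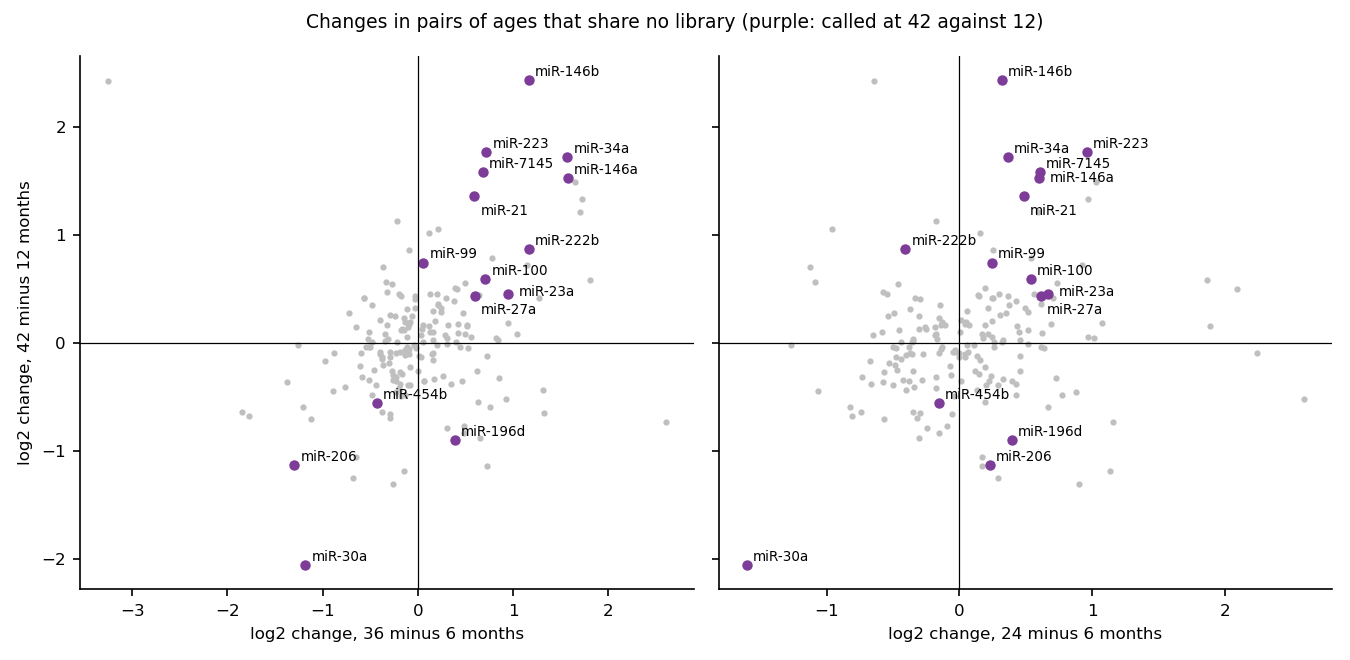
Log2 change from 12 to 42 months (vertical axis) against the change from 6 to 36 months (left) and from 6 to 24 months (right), each point a microRNA name and purple points the 15 calls. On the left 14 of the 15 lie in the quadrants of the same direction and miR-196d does not; on the right miR-196d, miR-206 and miR-222b do not.

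The libraries at 42 months varied more. On the log2(CPM + 1) scale the SD over the 5 libraries was larger at 42 than at 12 months for 113 of 173 names (65.3%), with medians of 0.367 and 0.325, and no test was made. In 37 names the SD at 42 months was over 2 times that at 12 months, and in 6 the reverse held. Replicate 1 at 42 months held the highest value of its age for 7 of the 11 higher names, and replicates 2 and 5 for 2 each. The libraries at 42 months were also shallower on average, and replicate 1 was the deepest of them, at 2838826 reads. The part of depth in this spread was not tested.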

How the data were processed

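Small RNA from the skin of male zebrafish was sequenced from total RNA with a TruSeq kit, per the labels' protocols. The tools named, with no role, are BWA 0.7.12-r1039, SAMtools 1.3.1-9, CASAVA 1.8.4 and Trimmomatic 0.36, per the submitters' processing notes. The sources used here give neither the hairpin reference nor the build, nor how reads that match several copies were treated. If such a read was counted at each copy, summed levels and library totals hold it more than once. The deposited table holds the authors' raw read counts per hairpin, without normalization.

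Counts of all 25 libraries were fitted with edgeR 4.0.16 in R 4.3.3, with TMM scaling, filterByExpr by age (minimum count 10), age as a factor and quasi-likelihood F tests of 42 against 12 months. This was done for hairpins, for names with copies summed, which give the values of single microRNAs, and for families by number. Benjamini-Hochberg adjustment ran over all features tested, with a threshold of 0.05. The SE is the size of the log2 change over the square root of F. Library values were compared by exact permutation tests (scipy 1.17.1), two-sided, over 7 measures. Clusters were taken from a RefSeq gene table (assembly GRCz12tu) that matched 341 of 346 hairpins, within 10 kb, for neighbourhood alone. Mature sequences were not used here.

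Named microRNAs were, in the fit with copies summed, up to 12 per direction with the largest change among calls whose ranges lay apart, the 5 of smallest p per direction, the 10 of highest mean CPM, and in each list the most abundant and the called members. Others are said to be chosen after their values were seen, or stand beside a named member of the same list or cluster. The members, the 31 lists and the tests were chosen with earlier results of these data known, and lists were not tested. Alternative settings were other scalings (DESeq2 size factors, upper quartile, library size), a minimum mean CPM of 100 or no filter, limma-voom (limma 3.58.1), DESeq2 1.42.0, robust estimation, the 10 libraries alone, and each library left out.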

Additional observations from a re-analysis of the deposited data

Results flagged for a closer look

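In 10 of 92 groups of 5 libraries, the highest or lowest library stood apart from the other 4 by over 0.71 of the range. That is Dixon's critical value at 95%, which by chance flags about 1 in 20 groups of independent, normally distributed values. CPM were taken without logs and the groups share the same 10 libraries, so 10 of 92 is a description and not a test. At 42 months replicate 1 held 9638 CPM of miR-146b and 153.3 CPM of miR-34a, each the highest of its age. Replicate 2 of that age, the shallowest library, was highest for miR-100 (8347 CPM), miR-182 (8316 CPM) and the keratinocyte microRNA miR-205 (183000 CPM), and lowest for miR-27b (13270 CPM). Replicate 5 at 42 months was highest for miR-192, a microRNA of gut and liver, with 11610 CPM. At 12 months replicate 1 was highest for miR-30d (11380 CPM), miR-92a (43790 CPM) and miR-7145 (10.3 CPM).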

How the results depend on the processing

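Counts of calls moved with the fit. For hairpins, 23 became 37 with DESeq2, 0 with the 2 ages alone (47 at an unadjusted p under 0.05), 11 to 39 without each library in turn, and 5 without 42 months replicates 1, 2 and 5, a setting chosen after the data were seen. The libraries that moved it by over 1.5 times were 12 months replicates 1, 4 and 5 and 42 months replicates 1, 2, 4 and 5. For names, 15 became 33 with upper-quartile scaling, 26 with DESeq2, 0 with the 2 ages alone, 6 to 28 without each library, and 2 without those 3 libraries. Hairpins split into 7 higher and 13 lower with upper-quartile scaling and 6 and 20 with library size alone. DESeq2 called all 15 of the names again, and limma-voom 14. No called microRNA changed direction in any setting run. These settings reuse libraries from which the names were called, so a kept direction is not separate support for the calls. The difference in library totals, -1667400 reads, was between -2004000 and -1252300 without each library (exact permutation p = 0.0476 to 0.0952). That in hairpins with at least 10 reads, -18.6, was -21.2 to -13.9, and -7.8 after thinning (exact permutation p = 0.119). The difference in the share of the 10 largest names, 0.678 percentage points, was -0.203 without 12 months replicate 4 and -0.349 without 42 months replicate 1, and up to 1.59 without the others. The causes were not tested. No paired analysis was possible because the labels give no replicate numbers that the ages share. Of the calls, miR-30a and miR-7145 rest on few reads, where depth limits precision. In 42 months replicate 2, the shallowest library, miR-196d held 8 reads and miR-34a 10.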

Other observations

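Some microRNAs outside the calls were high or low in a single library, and these were chosen after their values were seen. The neural microRNAs miR-124 and miR-9 were at 749 and 1136 CPM in 42 months replicate 5, against 10.02 to 31.2 and 90.1 to 217.5 CPM in the other 4 libraries of that age. At 12 months they were at 44.6 to 116 and 210 to 566 CPM. The same library held 2006 CPM of let-7i, against 263 to 476 in the other 9 libraries. MiR-735 was at 0 CPM in that library and at 189 to 639 in the other 9. MiR-725 had a low level of 31.6 and 44.0 CPM in 42 months replicates 3 and 4 and of 51.0 in 12 months replicate 2, against 3040 to 10850 in the other 7. MiR-2185 was at 2.13 to 123 CPM at 12 months and 85.5 to 607 at 42 months, a log2 change of 2.43 that did not pass in edgeR (adjusted p = 0.0698).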
